A study of Mus musculus with 16 samples.

Results

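The neuropeptide receptors described here are Tacr3, Mc3r, Npy1r, Npy2r, Npy5r, Oprm1, Oprd1, Oprk1, Vipr1 and Cckbr. They are 10 of the 30786 mouse genes that the array measured through at least 1 transcript cluster annotated to a single gene, and the cluster with the highest mean stood for each gene. They were chosen for their levels in striatum against cortex and in one mouse line against the other, so those differences are given as a description with no test. The cells carried the red fluorescent protein tdTomato as a reporter of parvalbumin neurons and were collected by fluorescence-activated sorting from male C57BL/6J mice aged 30 days. PVCre striatum, PVCre cortex, PV-tdTomato striatum and PV-tdTomato cortex made up the 4 groups, with 4 arrays in each. The PVCre line had the genotype PVCre/+; tdTomato/+, in which Cre recombinase under control of the parvalbumin gene turns the reporter on, so that any cell in which Cre was once active keeps the colour. The PV-tdTomato line had the genotype PV-tdTomato/+, carried no Cre and made tdTomato directly. Striatum was the dorsal striatum, and cortex was motor with somatosensory cortex. A replicate was a pool of 2000 sorted cells from 2 to 4 mice, and 5 ng of its RNA was amplified for the array. Levels are log2 values, so a difference of 1 is a factor of 2, and levels are compared between samples for a gene and not between genes. The SE of a difference comes from the spread among pools within groups, taken over all 16 arrays. It is thus the same for a gene in every comparison, and it can exceed or fall short of the spread of the groups compared. For Npy1r, with an SE of 0.70, the SD was 0.60 in PV-tdTomato striatum and 1.97 in PV-tdTomato cortex. It was 0.44 in PVCre striatum and 0.45 in PVCre cortex. Whether striatal and cortical pools came from the same mice was not stated in the labels.

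Neuropeptide receptors are G protein-coupled receptors in the cell membrane that respond to peptides cut from larger precursor proteins and released from neurons. The class of G protein decides the first step inside the cell: Gq raises calcium, Gs raises cyclic AMP, and Gi lowers cyclic AMP and opens potassium channels. Tacr3 (the neurokinin B receptor NK3) and Cckbr (the main cholecystokinin receptor of the brain) couple to Gq. Mc3r (a melanocortin receptor) and Vipr1 (a receptor of vasoactive intestinal peptide) couple to Gs. The neuropeptide Y receptors Npy1r, Npy2r and Npy5r and the mu, delta and kappa opioid receptors Oprm1, Oprd1 and Oprk1 couple to Gi. In cortex and striatum, peptide signals of this kind set the excitability of interneurons and the release of transmitter.

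The arrays differed in ways that touch several results below. The level of Pvalb, the gene of parvalbumin, ran from 10.2 to 11.87 in PVCre striatum, 6.69 to 12.48 in PVCre cortex, 7.29 to 11.86 in PV-tdTomato striatum and 6.96 to 12.17 in PV-tdTomato cortex. Pvalb was lowest, at 8.4 or under, on 6 arrays: replicates 2 and 4 of PVCre cortex and replicates 3 and 4 of both PV-tdTomato groups. Gad1, which makes the transmitter GABA, was lowest on the same PVCre cortex arrays, at 8.88 and 7.4, and was between 11.63 and 14.43 on the other 14. The mean of 9 oligodendrocyte markers was 14.3 to 15.33 in the PVCre line and split the PV-tdTomato line: it was 12.34 to 12.83 in replicates 1 and 2 of both regions and 14.34 to 14.97 in replicates 3 and 4, which are also the arrays of low Pvalb. The mean of 9 microglial markers was 7.42 to 9.65 in the PVCre line against 5.43 to 5.88 in the PV-tdTomato line, where 7 and 6 of the 9 lay within background in striatum and cortex. This mean separated the lines on every array. Fits below that hold it as a covariate therefore cannot tell line from microglial marker level, and line calls lost in them show no cause. The mean of 11 markers of striatal projection neurons was 7.41 to 8.17 in PVCre striatum, 6.45 to 7.1 in PVCre cortex, 8.42 to 8.72 in PV-tdTomato striatum and 6.92 to 7.96 in PV-tdTomato cortex. The gap between positive and negative control probe sets, a measure of array quality, was 3.08 to 3.93 in the PVCre line and 4.16 to 4.85 in the PV-tdTomato line. Background probe sets had mean levels up to 6.1, and a level at or under 6.1 is called within background. In sorted pools, fewer cells of a type and less RNA per cell cannot be told apart.

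Promoter sequences are shown for 3 receptors: Tacr3 and Mc3r, which varied together over the arrays, and Npy5r, whose arrays separated the lines in both regions. The windows of Npy1r and Npy2r overlap the annotated gene and are not shown. Each is the 250 bases before the annotated start, read 5′ to 3′ on the gene's strand, from RefSeq on build GRCm38.p6. Tacr3 lies on the plus strand at chr3:134828757-134829006, Mc3r on the plus strand at chr2:172248242-172248491 and Npy5r on the minus strand at chr8:66688095-66688344. Capitals mark the TATA box TATAAA in Tacr3 and the CCAAT box in Mc3r and, in its reverse form ATTGG, in Npy5r.
Tacr3: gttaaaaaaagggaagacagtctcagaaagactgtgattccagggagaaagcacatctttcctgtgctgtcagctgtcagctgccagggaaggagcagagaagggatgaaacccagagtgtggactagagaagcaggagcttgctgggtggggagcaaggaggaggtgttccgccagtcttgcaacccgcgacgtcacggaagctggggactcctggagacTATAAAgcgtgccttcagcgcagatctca
Mc3r: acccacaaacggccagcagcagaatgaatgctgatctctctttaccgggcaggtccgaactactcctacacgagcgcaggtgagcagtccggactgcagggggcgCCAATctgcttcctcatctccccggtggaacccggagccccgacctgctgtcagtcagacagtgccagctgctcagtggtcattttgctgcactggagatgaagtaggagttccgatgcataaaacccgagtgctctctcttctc
Npy5r: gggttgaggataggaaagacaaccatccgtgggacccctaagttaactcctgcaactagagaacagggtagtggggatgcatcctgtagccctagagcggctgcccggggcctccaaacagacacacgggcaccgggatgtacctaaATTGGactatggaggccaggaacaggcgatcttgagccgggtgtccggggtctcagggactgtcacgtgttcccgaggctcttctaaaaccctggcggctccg
The TATA box of Tacr3 begins 29 bases before the start, and the CCAAT boxes of Mc3r and Npy5r begin 145 and 103 bases before it. RefSeq windows were held for 9 of the 10 receptors, 11 windows in all. On both strands, CCAAT was in 6 of these 11 windows and in 33.8% of all 32851 windows, the GC box GGGCGG in 3 and in 32.7%, and TATAAA in 1 and in 12.4%. The homeodomain core TAATTA, found in 4.8% of all windows, and the cyclic AMP response element TGACGTCA, found in 1.5%, were in none of the 11. A match is a description of letters and shows no binding. Npy1r and Npy5r are neighbours on chromosome 8 on opposite strands, with 9054 bases between Npy5r and Npy1r.

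Tacr3 was high in striatal cells of the PV-tdTomato line and within background in the PVCre line. Its levels were 5.5, 4.98, 5.06 and 5.05 in PVCre striatum, 4.99, 5.28, 5.54 and 5.46 in PVCre cortex, 11.18, 11.03, 9.38 and 9.36 in PV-tdTomato striatum, and 7.05, 6.23, 6.16 and 5.97 in PV-tdTomato cortex. All 4 PV-tdTomato striatal arrays lay above every other array. Striatum exceeded cortex in the PV-tdTomato line by 3.88 ± 0.38 (SE, n = 4 each), a factor of 14.7, while the difference in the PVCre line was -0.17 ± 0.38 with overlapping groups. PVCre striatum was lower than PV-tdTomato striatum by a factor of at least 17.6, because the PVCre arrays give only an upper bound on the level. In cortex the PVCre arrays also lay under all PV-tdTomato arrays, with a log2 difference of -1.04 ± 0.38. No fold is given there, since replicate 4 of PV-tdTomato cortex was within background too.

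Mc3r, a receptor of melanocortins made from Pomc, had the same order of groups. Its levels were 5.44, 5.13, 5.18 and 5.11 in PVCre striatum, 5.19, 5.49, 5.34 and 5.45 in PVCre cortex, 9.86, 9.51, 7.61 and 7.74 in PV-tdTomato striatum, and 5.7, 5.46, 5.58 and 5.27 in PV-tdTomato cortex. PV-tdTomato striatum was the one group above background, on all 4 arrays. The striatal level exceeded the cortical one in the PV-tdTomato line by 3.18 ± 0.39 on the log2 scale (SE, n = 4 each), at least 5.98-fold, and PVCre striatum was lower than PV-tdTomato striatum by the same bound of at least 5.98-fold. In the PVCre line and between the lines in cortex all arrays were within background, and no fold is given. Replicates 1 and 2 of PV-tdTomato striatum, with Pvalb at 11.38 and 11.86 and oligodendrocyte marker means of 12.44 and 12.34, had higher Tacr3 and Mc3r than replicates 3 and 4, with Pvalb at 7.29 and 8.4 and marker means of 14.34 and 14.51. With the 6 arrays of lowest Pvalb left out, an alternative added after the data were seen, the striatal excess in the PV-tdTomato line was 4.46 for Tacr3 and 4.11 for Mc3r. The mean of the markers of striatal projection neurons was also highest in PV-tdTomato striatum. So was the mean of 5 cholinergic markers, at 7.88, 7.82, 7.03 and 6.87 there, 5.5 to 5.84 in PVCre striatum and 6.11 to 7.51 in PV-tdTomato cortex. Of these, Lhx8, a transcription factor of cholinergic neurons, was 11.56, 11.3, 9.1 and 8.89 in PV-tdTomato striatum and 6.04 to 7.67 on all other arrays, while the defining markers Chat and Slc18a3 were within background in that group. The part of either marker list in these differences was not tested. The list of projection neurons holds Tac1, Penk, Pdyn and Rgs9, which are also in other lists below. Its members differed: Tac1 was 6.67 to 6.89 in PV-tdTomato striatum and 6.76 to 8.27 in PVCre striatum. Within PV-tdTomato striatum, Drd2, Ppp1r1b, Gpr6 and Rgs9 were higher on replicates 3 and 4, and Bcl11b and Pdyn on replicates 1 and 2.

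**Figure D1:**
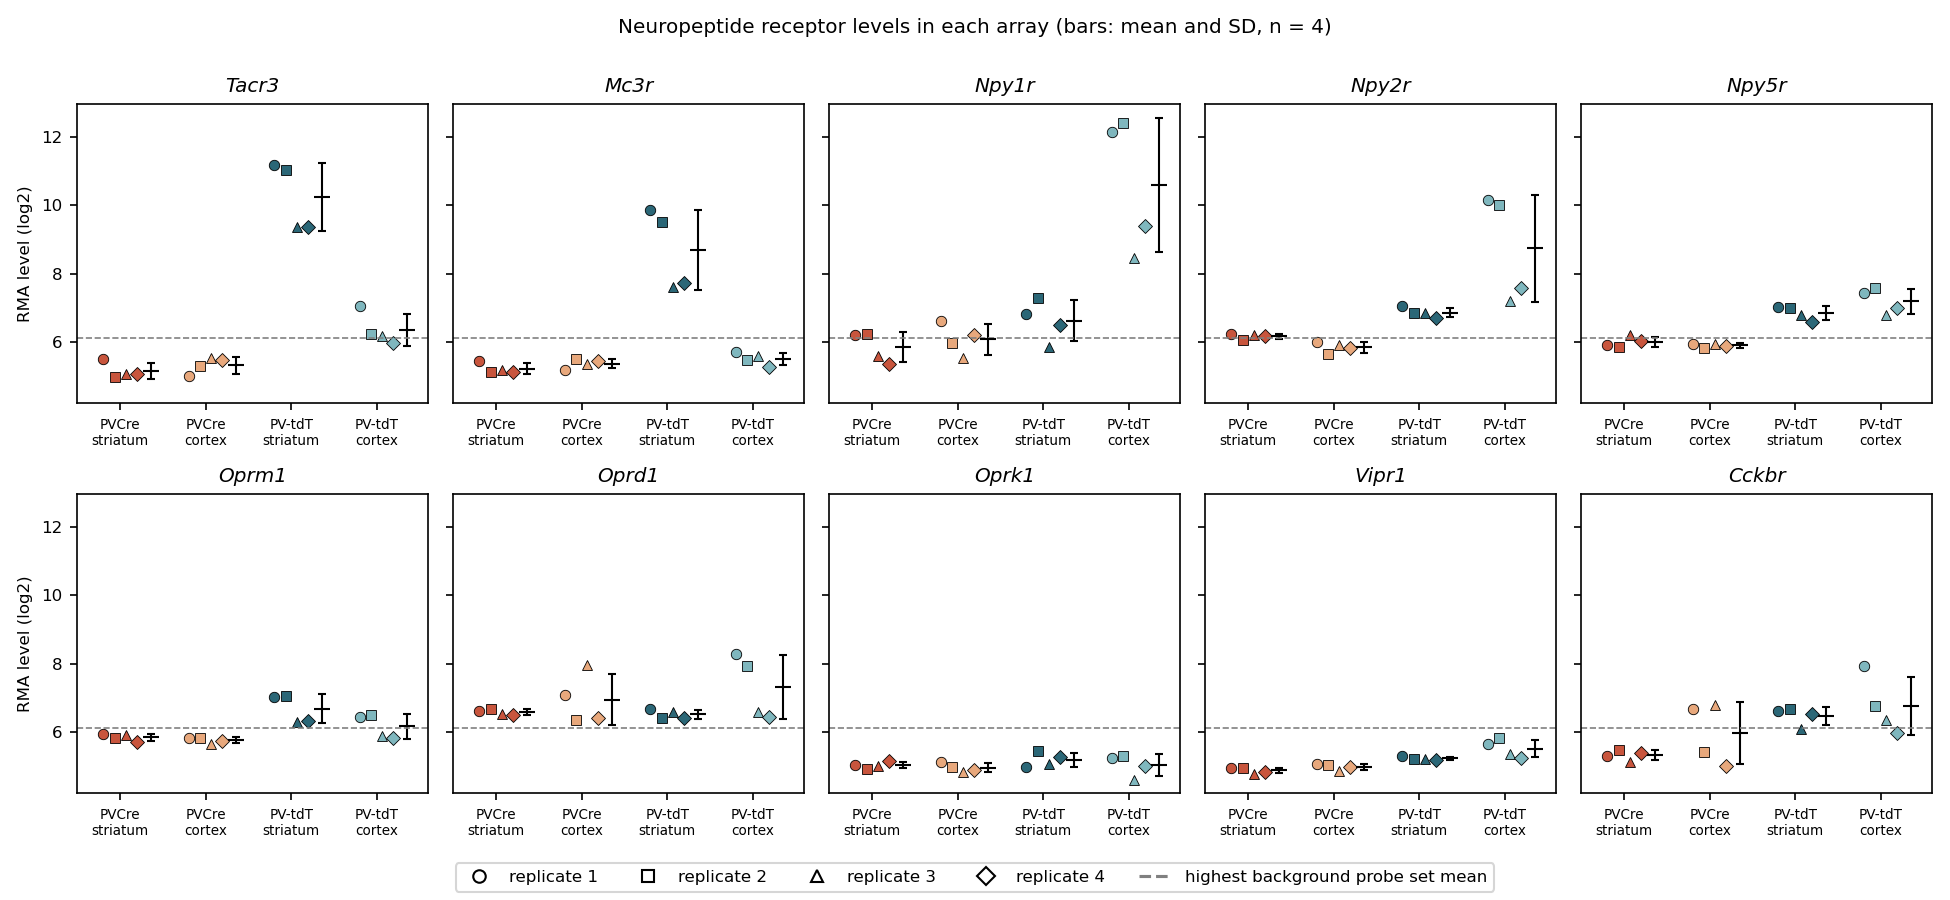
Log2 levels of the 10 receptors on each array, one panel per gene and one column per group, with symbols for replicate numbers, bars for the mean and SD (n = 4) and a dashed line at 6.1 for the highest background probe set mean. Tacr3 and Mc3r are high in PV-tdTomato striatum, Npy1r and Npy2r in PV-tdTomato cortex, and Oprk1 and Vipr1 lie under the line on all arrays.

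The neuropeptide Y receptors ran the other way across regions in the PV-tdTomato line. Npy1r, the Y1 receptor, had levels of 6.2, 6.23, 5.6 and 5.36 in PVCre striatum, 6.61, 5.97, 5.52 and 6.2 in PVCre cortex, 6.82, 7.29, 5.86 and 6.49 in PV-tdTomato striatum, and 12.14, 12.4, 8.45 and 9.39 in PV-tdTomato cortex. Every PV-tdTomato cortex array was above all 12 others, and the 2 highest were those with Pvalb at 12.17 and 11.13 and the lower oligodendrocyte marker means. Some markers of other interneurons were also highest there. Reln was 9.82 to 12.22 in PV-tdTomato cortex and at most 6.76 elsewhere, Ndnf 8.52 to 10.12 and at most 6.35, and Lamp5 8.74 to 9.68 and at most 7.45. Sst and Nos1 did not separate that group from PV-tdTomato striatum. Sst was 12.27 to 13.56 in PV-tdTomato striatum and 13.99, 13.08, 9.57 and 8.72 in PV-tdTomato cortex, and Nos1 was 6.22 to 6.79 and 6.2 to 7.11. The part of these interneurons in the Npy1r difference was not tested. Striatum was lower than cortex by 3.98 in the PV-tdTomato line (SE 0.70, n = 4 each, a factor of 15.8), against a difference of -0.23 ± 0.70 in the PVCre line, where the groups overlapped. Between the lines, PVCre cortex was 23-fold lower than PV-tdTomato cortex (a log2 difference of -4.52 ± 0.70, with 2 of the 4 PVCre arrays above background), and the striatal difference of -0.77 ± 0.70 came with overlapping arrays.

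Npy2r, the Y2 receptor found on nerve endings, was 6.24, 6.06, 6.19 and 6.16 in PVCre striatum, 6.0, 5.64, 5.91 and 5.82 in PVCre cortex, 7.05, 6.85, 6.84 and 6.7 in PV-tdTomato striatum, and 10.16, 10.01, 7.2 and 7.58 in PV-tdTomato cortex. As with Npy1r, PV-tdTomato cortex stood above the other 3 groups, and replicates 1 and 2 stood highest within it. The striatum minus cortex difference was 0.32 ± 0.52 in the PVCre line, where the striatal arrays were all just above the cortical ones, and -1.88 ± 0.52 in the PV-tdTomato line. PVCre cortex was lower than PV-tdTomato cortex by at least 6.22-fold. In striatum the difference between the lines was -0.70 ± 0.52, with no overlap, and it was 0.01 once oligodendrocyte and microglial marker levels were covariates.

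Npy5r, the Y5 receptor, showed small differences and little spread. Its levels were 5.9, 5.85, 6.2 and 6.02 in PVCre striatum, 5.94, 5.81, 5.94 and 5.89 in PVCre cortex, 7.01, 6.98, 6.78 and 6.57 in PV-tdTomato striatum, and 7.42, 7.58, 6.79 and 7.0 in PV-tdTomato cortex. All 8 PVCre arrays were below all 8 PV-tdTomato arrays. PVCre minus PV-tdTomato was -0.84 ± 0.16 in striatum and -1.31 ± 0.16 in cortex, where PVCre cells were at least 2.14-fold lower, while the regions overlapped in each line, with differences of 0.10 ± 0.16 in PVCre and -0.37 ± 0.16 in PV-tdTomato.

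Among the opioid receptors, Oprm1 separated the lines in striatum, Oprd1 followed Pvalb in cortex and Oprk1 stayed within background. Oprm1, the receptor of morphine and of enkephalins, was 5.93, 5.82, 5.91 and 5.71 in PVCre striatum, 5.83, 5.81, 5.65 and 5.73 in PVCre cortex, 7.03, 7.05, 6.3 and 6.33 in PV-tdTomato striatum, and 6.43, 6.5, 5.88 and 5.83 in PV-tdTomato cortex. PVCre arrays were within background in both regions. PVCre minus PV-tdTomato was -0.84 ± 0.20 in striatum, at least 1.49-fold lower in PVCre, and -0.41 ± 0.20 in cortex. No fold is given for cortex, where PV-tdTomato replicates 3 and 4 were within background too. Within the PV-tdTomato line striatum exceeded cortex by 0.52 ± 0.20, with overlapping arrays that again fell into replicates 1 and 2 above replicates 3 and 4 in both regions.

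Oprd1, which binds enkephalins, was above background on all 16 arrays. It was 6.6, 6.68, 6.51 and 6.5 in PVCre striatum, 7.07, 6.35, 7.96 and 6.41 in PVCre cortex, 6.66, 6.41, 6.59 and 6.4 in PV-tdTomato striatum, and 8.27, 7.94, 6.58 and 6.45 in PV-tdTomato cortex. The 4 highest values came from the 4 cortical arrays with Pvalb above 10, in both lines, and the other cortical arrays were at the striatal level. The striatum minus cortex difference was -0.38 ± 0.40 in PVCre and -0.80 ± 0.40 in PV-tdTomato over all arrays, and -0.94 and -1.57 without the 6 arrays of lowest Pvalb. The lines overlapped in both regions, with differences of 0.05 ± 0.40 in striatum and -0.36 ± 0.40 in cortex. Oprk1, the dynorphin receptor, lay between 4.6 and 5.44 on all 16 arrays, within background, and its 4 differences were -0.16 to 0.14.

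Vipr1 was within background throughout, at 4.77 to 4.94 in PVCre striatum, 4.85 to 5.05 in PVCre cortex, 5.18 to 5.3 in PV-tdTomato striatum and 5.25 to 5.81 in PV-tdTomato cortex, so no fold is given for it. Cckbr was 5.3, 5.46, 5.13 and 5.39 in PVCre striatum, 6.68, 5.4, 6.78 and 5.0 in PVCre cortex, 6.62, 6.67, 6.09 and 6.53 in PV-tdTomato striatum, and 7.92, 6.77, 6.34 and 5.97 in PV-tdTomato cortex. The PVCre cortex arrays above background were replicates 1 and 3, the ones with high Pvalb, as for Oprd1. PVCre striatum was lower than PV-tdTomato striatum (a log2 difference of -1.16 ± 0.42) with no overlap, and replicate 3 of PV-tdTomato striatum was within background too. The groups overlapped in the other comparisons, at -0.65 ± 0.42 for striatum minus cortex in PVCre, -0.27 ± 0.42 in PV-tdTomato and -0.78 ± 0.42 for PVCre minus PV-tdTomato in cortex. Without the 6 arrays of lowest Pvalb the difference in PVCre was -1.41.

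**Figure D2:**
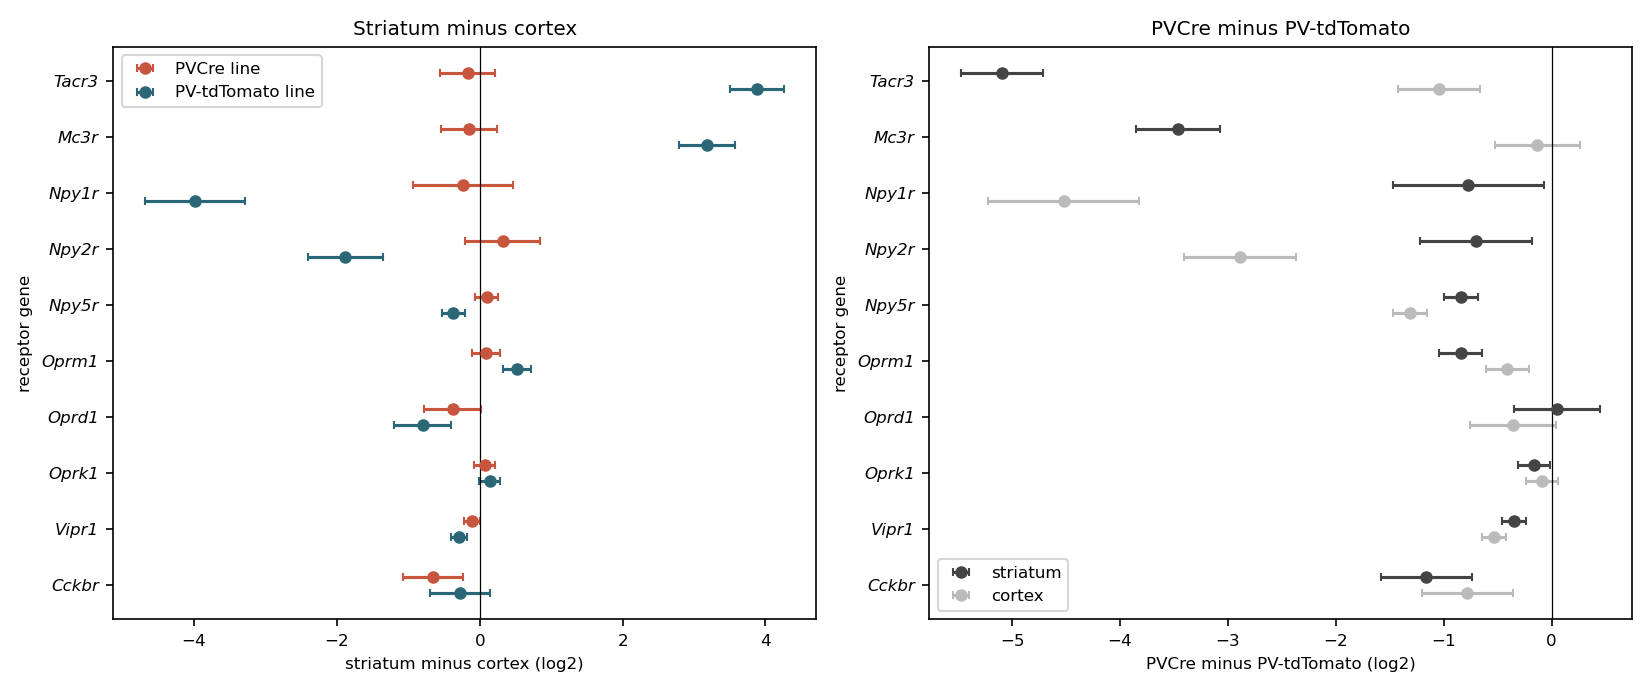
Log2 differences with SE (n = 4 arrays each) for the 10 receptors: striatum minus cortex in each line on the left, PVCre minus PV-tdTomato in each region on the right. Points of the PVCre line lie between -0.65 and 0.32 on the left, whereas those of the PV-tdTomato line run from -3.98 for Npy1r to 3.88 for Tacr3.

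Of the 10 receptors, 8 passed the filter on low mean levels, and Oprk1 and Vipr1 did not. With limma and an adjusted p under 0.05, in the PVCre line 0 of the 8 were called higher in striatum, where 2.86% of the 20524 genes tested were, and 0 lower, against 1.04%. In the PV-tdTomato line, 2 (Tacr3 and Mc3r) were called higher in striatum, against 1.73% of all genes, and 1 (Npy1r) lower, against 0.59%. Between the lines in striatum, 0 were higher in PVCre cells, against 18.3%, and 5 lower, against 35% of all genes, and in cortex 0 were higher, against 19.2%, and 4 lower, against 34.4%. The median difference of the 8 was -0.16 in the PVCre regions, against -0.01 for all genes tested, and -0.32 in the PV-tdTomato regions, against 0.02. Between the lines it was -0.84 in striatum and -0.91 in cortex, against -0.22 for all genes in each. The choice of the receptors used these comparisons, so nothing is read from these counts. All 16 arrays contribute to the spread used, and the comparisons share arrays. Fitted on the PV-tdTomato arrays alone, Tacr3 and Mc3r were called and Npy1r was not.

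Between the lines, the split of all calls into higher and lower moved with the scaling. Under the deposited scaling 3757 genes were higher and 7193 lower in PVCre striatum, and 3932 were higher and 7054 lower in PVCre cortex. After quantile normalization the counts were 4819 higher and 4944 lower in striatum, and 5330 higher and 4909 lower in cortex, and the median over all genes was -0.02 in striatum and 0.02 in cortex. Batch and line cannot be told apart, since the labels name no batch.

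Likeness over the 16 arrays is given as Pearson r with no test, since the arrays share groups. Tacr3 and Mc3r had r = 0.98, Npy1r and Npy2r 0.95, Tacr3 and Oprm1 0.89, and Oprd1 and Cckbr 0.71, while Tacr3 and Npy1r had 0.06. Npy5r lay between, with 0.56 to Tacr3, 0.71 to Oprm1, 0.82 to Npy1r and 0.89 to Npy2r. Vipr1, though within background, had 0.9 to 0.91 with the 3 neuropeptide Y receptors. Among 14065 named genes tested, Baiap3 (0.988), Dgkk (0.979) and Lrrc55 (0.957) were most like Tacr3, and Trh (0.982), Dgkk (0.974) and Pdyn (0.972) most like Mc3r. Trh, the precursor of thyrotropin-releasing hormone, was 11.85, 12.15, 9 and 9.33 in PV-tdTomato striatum and 4.91 to 6.37 on the 12 other arrays. Most like Npy1r were Tac2 (0.988), Rxfp1 (0.983) and Chrna5 (0.983), and most like Npy2r were Wnt5a (0.986), Rgs12 (0.983) and Egfem1 (0.981). Npy5r was most like Fxyd6 (0.979), Calb2 (0.978) and Nudt17 (0.977). Calb2, which encodes the calcium-binding protein calretinin and marks other interneurons, was 5.12 to 5.65 in the PVCre line, 9.37 to 10.71 in PV-tdTomato striatum and 8.58 to 12.38 in PV-tdTomato cortex. For Oprm1 the 3 genes were Ctxn2 (0.97), Adamts16 (0.969) and Trpc7 (0.967), for Oprd1 Grhl3 (0.954), Rbp4 (0.95) and Siah3 (0.945), and for Cckbr Rab3b (0.903), Cntnap5a (0.9) and Unc5d (0.899). For the 2 receptors within background the values were 0.965 (Cadps2), 0.964 (Sorcs3) and 0.963 (Galns) for Vipr1, and 0.746 (Pcsk1), 0.708 (Rab27a) and 0.7 (Bard1) for Oprk1.

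The precursors of the peptides that these receptors bind were measured in the same pools, which does not place them in the same cells. They were not used to choose the receptors. Their list, like those of other genes below, was drawn up with earlier results of these data known. Of 13 listed, 12 were on the array under a single gene (Agrp was not analysed here) and 10 were tested, with Pyy and Adcyap1 under the filter. In the PV-tdTomato line 1 was higher in striatum (10%, against 1.73% of all genes) and 3 lower (30%, against 0.59%). In the PVCre line 0 passed in either direction, against 2.86% higher and 1.04% lower (adjusted p, limma). Pdyn, the dynorphin precursor, was 9.01, 9.04, 7.52 and 7.61 in PV-tdTomato striatum and 6.23, 6.49, 5.96 and 6.12 in PV-tdTomato cortex, a rise of 2.10 ± 0.30 (adjusted p = 0.00068, limma). Its receptor Oprk1 was within background on the same arrays. Tac2, which encodes neurokinin B, ran opposite to its receptor Tacr3: it was 7.57, 7.46, 6.68 and 6.62 in PV-tdTomato striatum and 13.06, 13.23, 8.62 and 10.21 in PV-tdTomato cortex, a difference of -4.20 ± 0.75 (adjusted p = 0.0049, limma). Vip, the precursor of vasoactive intestinal peptide, was 6.44, 5.94, 5.11 and 5.03 in PV-tdTomato striatum and 14.82, 15.31, 9.55 and 12.54 in PV-tdTomato cortex, a difference of -7.43 ± 0.90 (adjusted p = 0.00017, limma), while Vipr1 was within background. Vip and Calb2 are markers of other interneurons than parvalbumin cells, and the part of such cells in these levels was not tested.

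Cck, the cholecystokinin precursor, was 6.05, 6.49, 5.76 and 5.82 in PV-tdTomato striatum and 9.03, 8.79, 7.35 and 7.18 in PV-tdTomato cortex, lower in striatum (a log2 difference of -2.06 ± 0.35, adjusted p = 0.0032, limma). Fitted on the arrays of the PV-tdTomato line alone, Cck had an adjusted p of 0.095 and Tac2 of 0.14. Npy itself was 12.65, 11.82, 14.13 and 14.52 in PV-tdTomato striatum and 17.37, 16.76, 17.43 and 17.06 in PV-tdTomato cortex, with no overlap. That difference of -3.88 ± 1.30 did not pass (adjusted p = 0.24, limma). Its SE takes in the spread of PVCre cortex, with an SD of 3.21. The SD was 1.27 in PV-tdTomato striatum and 0.31 in PV-tdTomato cortex. In the PVCre line Npy varied with Pvalb in cortex, at 11.96, 7.79, 11.99 and 9.72 in striatum and 12.63, 8.5, 14.28 and 7.59 in cortex. The test of whether the region difference itself differed between the lines, PVCre minus PV-tdTomato, gave 6.8 ± 1.27 for Vip (adjusted p = 0.049, limma) and did not pass for the other 9 ligands, among them Tac2 at 3.98 ± 1.06 (adjusted p = 0.23). In that test 0.146% of all genes were called higher and 0.0487% lower.

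Between the lines, 5 of the 10 ligands were lower in PVCre cortex (50%, against 34.4% of all genes) and 2 in PVCre striatum (20%, against 35%). In each region 2 were higher in PVCre (20%, against 19.2% in cortex and 18.3% in striatum). Those lower in cortex were Tac2, Npy, Penk, Vip and Cck. Npy was lower in PVCre cortex by a log2 difference of -6.41 ± 1.30 (adjusted p = 0.00089, limma), and of -3.61 without the 6 arrays of lowest Pvalb (adjusted p = 0.045). Penk, the enkephalin precursor, was 5.46, 5.03, 5.18 and 5.55 in PVCre cortex and 9.48, 9.57, 5.78 and 7.18 in PV-tdTomato cortex. The log2 difference was -2.70 ± 0.63 (adjusted p = 0.0024, limma), with replicate 3 of PV-tdTomato cortex within background too. In striatum, Penk (-1.83 ± 0.63, adjusted p = 0.024) and Pdyn (-2.09 ± 0.30, adjusted p = 5.2e-05, limma) were lower in PVCre cells. The Penk call failed without PVCre striatum replicate 1 or 3 or PV-tdTomato striatum replicate 4 (adjusted p = 0.053, 0.062 and 0.056), and that of Pomc in striatum without the last of these arrays (adjusted p = 0.054). Pomc and Gast, the precursors of melanocortins and gastrin, were higher in PVCre cells by 0.33 ± 0.10 and 0.67 ± 0.11 in striatum and by 0.52 ± 0.10 and 0.74 ± 0.11 in cortex (adjusted p = 0.015, 0.00017, 0.00076 and 8.3e-05, limma). PV-tdTomato cortex was within background for Pomc, which gives at least 1.16-fold there. With oligodendrocyte and microglial marker levels as covariates, 1 ligand was called in striatum (Pdyn) and 2 in cortex (Vip and Tac2), and Npy in cortex had a difference of -4.08 (adjusted p = 0.31). Tac1, the substance P precursor, and Ppy passed in no comparison.

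**Figure D3:**
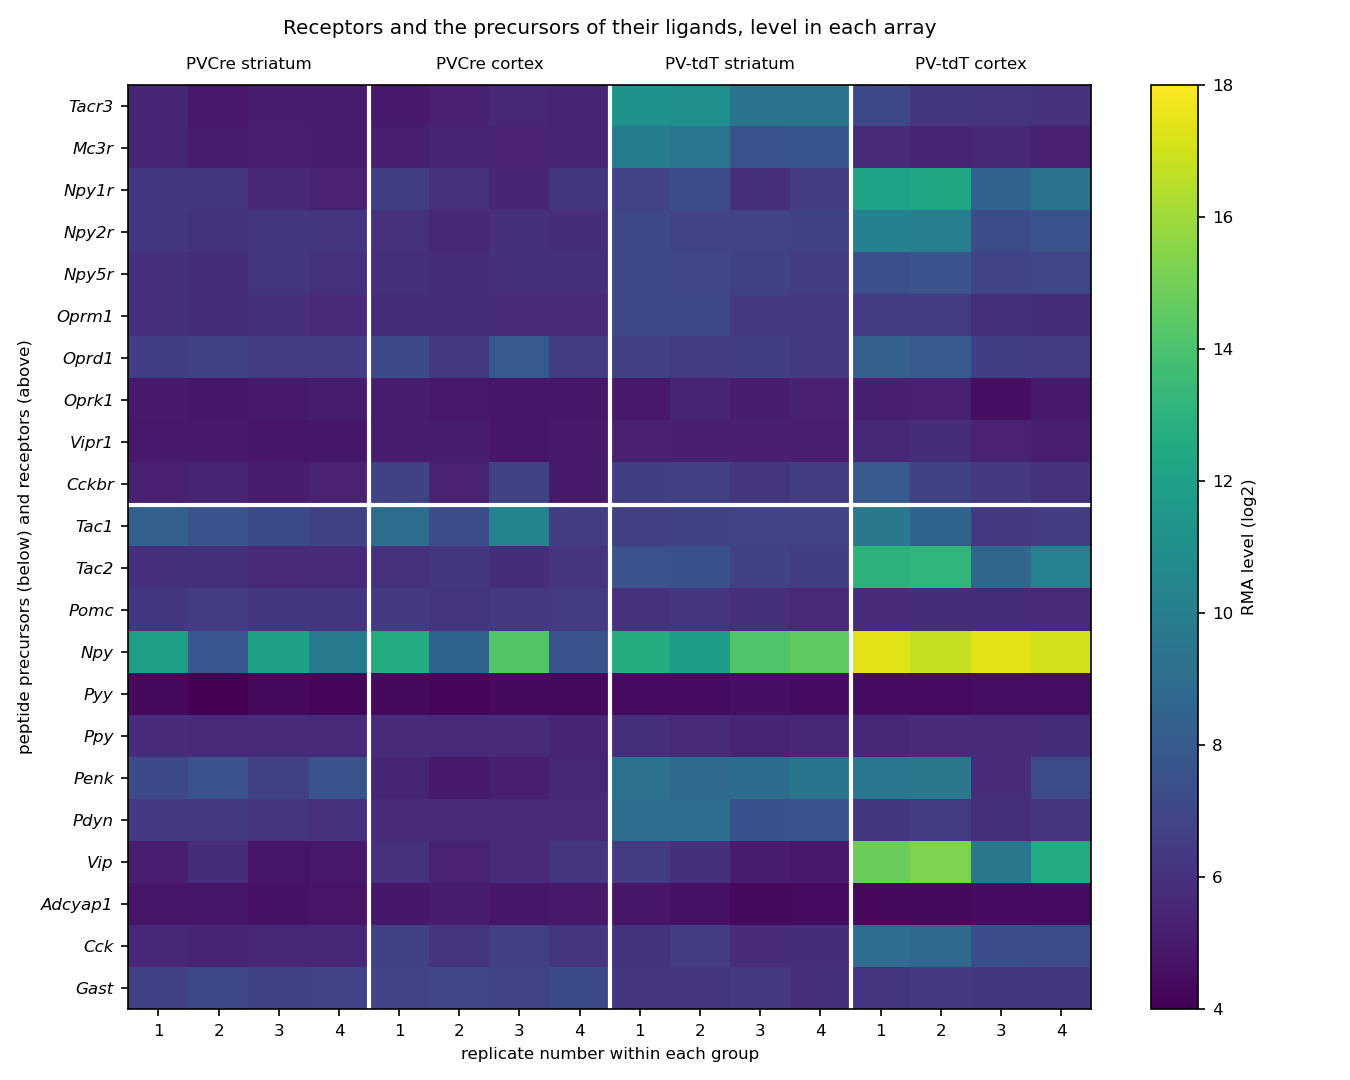
Log2 level of the 10 receptors (above the white line) and 12 peptide precursors (below it) on each of the 16 arrays, columns grouped by line and region. Colour is comparable along a row and not between rows. Vip, Tac2, Npy1r and Npy2r are bright in PV-tdTomato cortex, and Tacr3, Mc3r and Pdyn in PV-tdTomato striatum.

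A list of 67 other neuropeptide receptors gave 64 on the array and 35 tested. In the PVCre line 3 were higher in striatum and 0 lower, against 2.86% and 1.04% of all genes. In the PV-tdTomato line 4 were higher and 3 lower, against 1.73% and 0.59%. The median difference of the 35 was -0.04 in PVCre and -0.08 in PV-tdTomato, beside -0.01 and 0.02 for all genes. Mc4r, Prokr2 and Sctr were higher in striatum in both lines, which share no array in these comparisons. Mc4r, the melanocortin receptor of feeding control, was 6.78, 8.11, 8.91 and 9.23 in PVCre striatum, 5.35, 5.15, 4.82 and 5.53 in PVCre cortex, 9.88, 10.54, 7.27 and 7.49 in PV-tdTomato striatum, and 5.58, 5.37, 6.27 and 6.56 in PV-tdTomato cortex. Its striatal excess was at least 4.46-fold in PVCre (adjusted p = 0.019, limma) and 2.85 ± 0.68 on the log2 scale in PV-tdTomato (adjusted p = 0.039, and 0.096 with the replicate number as a block). Unlike Mc3r in PVCre striatum, Mc4r was above background on all 4 of those arrays.

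Prokr2, a prokineticin receptor, was 6.85, 8.39, 8.69 and 8.61 in PVCre striatum, 5.52 to 5.81 in PVCre cortex, 9.7, 9.52, 6.87 and 7.19 in PV-tdTomato striatum, and 5.47 to 5.7 in PV-tdTomato cortex. Both cortical groups were within background, and striatum was at least 4.1-fold higher in PVCre and at least 4.66-fold higher in PV-tdTomato (adjusted p = 0.022 and 0.015, limma). Sctr, the secretin receptor, was higher in striatum by 0.44 ± 0.11 in PVCre and 0.64 ± 0.11 in PV-tdTomato (adjusted p = 0.038 and 0.0035, limma). PV-tdTomato cortex was within background for Sctr, which gives at least 1.34-fold in that line. Single arrays decided whether the 3 PVCre calls passed, while the differences kept their size. None of the 3 passed without PVCre striatum replicate 3 or 4 or PVCre cortex replicate 2, and 1 passed without PVCre striatum replicate 2 or PVCre cortex replicate 1 or 4. Where they failed, the difference was 2.72 to 3.03 for Mc4r and 2.31 to 2.55 for Prokr2, with adjusted p of 0.053 to 0.074, and 0.37 to 0.48 for Sctr, with adjusted p of 0.06 to 0.13.

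Tacr1, the substance P receptor, was 6.95, 6.34, 8.03 and 7.93 in PVCre striatum, 6.94, 6.39, 7.41 and 6.26 in PVCre cortex, 10.12, 9.66, 9.62 and 8.89 in PV-tdTomato striatum, and 7.69, 7.39, 5.42 and 5.41 in PV-tdTomato cortex. The striatal excess in PV-tdTomato was 3.10 ± 0.54 (adjusted p = 0.0038, limma), and like Tacr3 the 4 PV-tdTomato striatal arrays stood above all others. Lower in PV-tdTomato striatum than cortex were Rxfp1, Grpr and Hcrtr2, the receptors of relaxin, gastrin-releasing peptide and orexin. Rxfp1 was 5.3, 5.17, 5.18 and 5.29 in PV-tdTomato striatum and 10.94, 11.05, 7.83 and 8.68 in PV-tdTomato cortex, at least 11.5-fold lower in striatum (-4.39 ± 0.53, adjusted p = 0.00018, limma). Its region difference also differed between the lines, by 4.09 ± 0.76 (adjusted p = 0.049, limma), the one call among the 35 in that test. Grpr was lower in striatum by a log2 difference of -3.6 (adjusted p = 0.027, limma), with cortical levels of 10.33, 11.04, 5.64 and 7.78, the third within background. Hcrtr2 was at least 1.63-fold lower in striatum (adjusted p = 0.0035). Fitted on the PV-tdTomato arrays alone, the list had 1 call in place of 7. That call was lower in striatum, so Mc4r, Prokr2 and Sctr did not pass in that fit. On the PVCre arrays alone the list had 2 calls, 2 higher and 0 lower. In PV-tdTomato it had 4 without striatum replicate 1 or without replicate 2. Either removal ended the calls of Prokr2 (adjusted p = 0.054 and 0.057), Mc4r (0.16 and 0.13) and Grpr (0.082 and 0.059). Mc4r also failed without any single cortical array, and Grpr without PV-tdTomato striatum replicate 3 or 4 or PV-tdTomato cortex replicate 1 or 2, with adjusted p of up to 0.14 and 0.1.

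**Figure D4:**
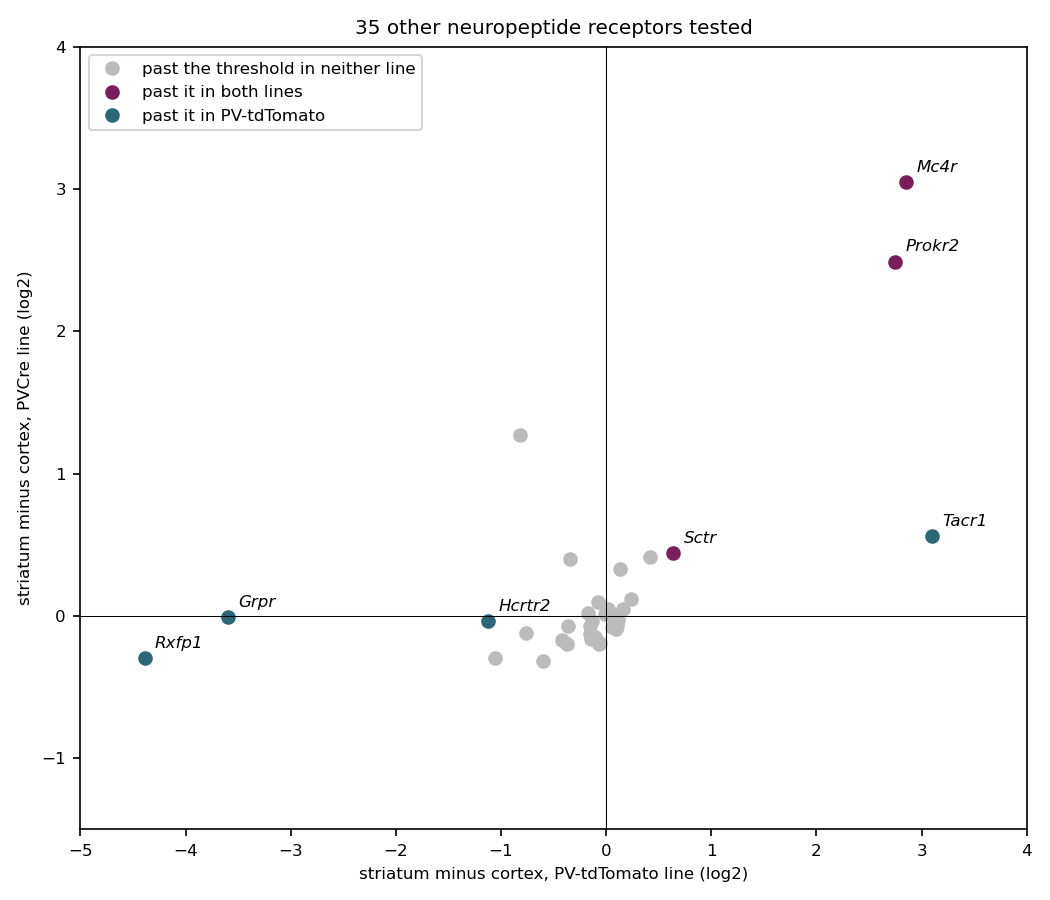
Striatum minus cortex (log2) of the 35 other receptors tested, PV-tdTomato line along the horizontal axis and PVCre line along the vertical axis, with colours for the lines in which the adjusted p was under 0.05. Mc4r, Prokr2 and Sctr are positive in both lines, whereas Tacr1, Rxfp1, Grpr and Hcrtr2 lie between -0.30 and 0.56 on the PVCre axis.

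Between the lines in striatum, 12 of the 35 other receptors were lower in PVCre cells (34.3%, near the 35% of all genes) and 3 higher (8.57%, against 18.3%). In cortex 17 were lower (48.6%, against 34.4%) and 4 higher (11.4%, against 19.2%). After quantile normalization, which moved all calls in striatum to 4819 higher and 4944 lower, 93.3% of the receptors called there were lower, against 80% under the deposited scaling, and in cortex 84.2% against 81%. The median differences were -0.47 in striatum and -0.55 in cortex, beside -0.22 for all genes. The smallest p in both regions belonged to Oprl1, the nociceptin receptor, which was 5.51 to 6 on the 8 PVCre arrays and 6.94 to 7.55 on the 8 PV-tdTomato arrays. It was at least 2.41-fold lower in PVCre striatum and at least 2.04-fold lower in PVCre cortex (adjusted p = 6e-07 and 1.2e-06, limma). Adcyap1r1, the receptor of the peptide PACAP, was 7.6, 8.08, 8.19 and 8.38 in PVCre striatum, 7.72, 7.23, 8.56 and 7.13 in PVCre cortex, 10.56, 10.25, 10.76 and 10.37 in PV-tdTomato striatum, and 11.26, 10.97, 10.38 and 10.68 in PV-tdTomato cortex. PVCre minus PV-tdTomato was -2.42 ± 0.29 in striatum and -3.17 ± 0.29 in cortex (adjusted p = 1.1e-05 and 1.2e-06, limma). With oligodendrocyte and microglial marker levels as covariates they were -1.29 (adjusted p = 0.052) and -1.88 (adjusted p = 0.018). The somatostatin receptor Sstr1, within background on all PVCre arrays, was at least 2.07-fold and 2.78-fold lower in PVCre striatum and cortex (adjusted p = 3.9e-06 and 1.8e-06).

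Pth1r and Kiss1r, receptors of parathyroid hormone and kisspeptin, were lower in PVCre striatum (adjusted p = 9.1e-05 and 0.0018, limma). The bound was at least 1.45-fold for Pth1r, and none is given for Kiss1r, with replicates 3 and 4 of PV-tdTomato striatum also within background. Hcrtr2 was also called there (adjusted p = 0.0021), within background in both lines. With the marker covariates the Kiss1r difference was -0.21 in place of -0.64 (adjusted p = 0.5), and Hcrtr2 had an adjusted p of 0.098. In cortex, Hcrtr2, Rxfp1 and the melanocortin receptor Mc5r were lower in PVCre by at least 1.63-fold, 11.5-fold and 2.21-fold (adjusted p = 2.9e-06, 9e-06 and 0.00035, limma), and the Mc5r difference was -4.02 with covariates against -2.33 without. Galr2, Rxfp4 and Agtr1b, receptors of galanin, an insulin-like peptide and angiotensin, were higher in PVCre in both regions by 0.37 to 0.62, and Pth2r in cortex by 0.53 ± 0.16 (adjusted p = 0.014, limma), all with group means of 5.43 to 6.45. Galr2 was within background in all groups, Pth2r in PV-tdTomato cortex, and Rxfp4 and Agtr1b in PV-tdTomato striatum. These line calls came with the higher microglial marker levels and the smaller control gap of the PVCre arrays. The fit with marker covariates called 10 receptors in striatum in place of 15 and 12 in cortex in place of 21. Microglial marker levels separated the lines on every array, so that fit cannot tell line from marker level. The part of the control gap was not tested.

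Genes that make and release peptides, and those that carry the receptor signal, were listed in the same way. Of 12 genes of peptide processing and release tested, 1 was higher in PVCre striatum than cortex, Scg2 (3.93 ± 1.02, adjusted p = 0.045, limma). In PV-tdTomato striatum 1 was lower than in cortex, Cadps2, which promotes release of dense-core vesicles (-2.61 ± 0.59, adjusted p = 0.03, limma). Each is 8.33% of the 12, against 2.86% of all genes higher in PVCre and 0.59% lower in PV-tdTomato. The Scg2 call was lost without any single array except PVCre cortex replicate 3, and the Cadps2 call without PV-tdTomato striatum replicate 1, 3 or 4 or PV-tdTomato cortex replicate 1 or 2. Between the lines 5 were lower in PVCre striatum (Cadps2, Pcsk1n, Scg3, Cpe and Vgf) and 9 in PVCre cortex, which are 41.7% and 75% of the 12, against 35% and 34.4% of all genes, and 0 higher in either. With the marker covariates 2 were called in striatum and 1 in cortex. Cadps2 was lower in both regions (-2.25 ± 0.59 in striatum and -4.26 ± 0.59 in cortex, adjusted p = 0.0055 and 4.7e-05), Pcsk1n, a precursor of convertase inhibitors, was -0.78 ± 0.21 in striatum (adjusted p = 0.0069), and Scg3 -1.61 ± 0.29 in cortex (adjusted p = 0.00035, limma). With covariates Pcsk1n was -0.52 (adjusted p = 0.28) and Scg3 -0.51 (adjusted p = 0.51), and after quantile normalization Pcsk1n had an adjusted p of 0.051. Of 31 signal transducers tested, 2 were higher in PVCre striatum than cortex (Rgs9 and Gna14), 6.45% against 2.86% of all genes. In PV-tdTomato striatum 4 were higher than in cortex (Rgs9, Gna14, Rgs14 and Rgs4), 12.9% against 1.73%. In either line 0 were lower, against 1.04% in PVCre and 0.59% in PV-tdTomato. Rgs9, which speeds the shutdown of Gi and is known from striatum, was higher by 2.30 ± 0.31 in PVCre and 1.71 ± 0.31 in PV-tdTomato (adjusted p = 0.00035 and 0.0053, limma). Gna14, a Gq alpha subunit, was at least 2.24-fold and 2.67-fold higher in PVCre and PV-tdTomato striatum (adjusted p = 0.011 and 0.004), and Rgs14 was 0.62 ± 0.11 higher in PV-tdTomato striatum (adjusted p = 0.0035). For Rgs14, PV-tdTomato cortex and replicate 2 of PV-tdTomato striatum were within background. Between the lines 16 transducers were lower in PVCre striatum (51.6%, against 35% of all genes) and 20 in PVCre cortex (64.5%, against 34.4%), with 0 higher, and with the marker covariates 10 and 7 were called. Those with the smallest p were Rgs14 and Gna11 in striatum (-1.03 ± 0.11 and -1.81 ± 0.19, adjusted p = 3.4e-06 and 3.9e-06) and Grk6 and Adcy9 in cortex (-0.90 ± 0.10 and -1.18 ± 0.15, adjusted p = 5.3e-06 and 1.8e-05, limma). Rgs14 and Grk6 were within background on all PVCre arrays, and Grk6 was at least 1.48-fold lower in PVCre cortex. With covariates Adcy9 was -0.69 (adjusted p = 0.096). The median of the transducers was -0.93 in striatum and -1.18 in cortex, beside -0.22 for all genes.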

How the data were processed

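The authors deposited log2 levels. Per the submitters' processing notes, they came from RMA, which corrects background, normalizes arrays and sums up probes, run in Affymetrix Expression Console (version, and which arrays were normalized together, not given in the sources used here). Of 72688 probe sets, 6732 were controls, 31278 transcript clusters named a single gene in the platform annotation, 1472 several and 33206 were unnamed here; 860 symbols were updated. The cluster with the highest mean stood for each gene. The 33.3% of genes with the lowest mean (under 5.53) were left out, and the other 20524 went into a fit of all 16 arrays by limma (version 3.58.1, functions lmFit and eBayes, R version 4.3.3) that gave each group its mean and left 12 residual degrees of freedom, with Benjamini-Hochberg adjustment over all genes tested and a threshold of 0.05. Arrays have no read count behind a value, so precision is set by their number. For a group with all arrays at or under 6.1, a fold was given only as a bound, with 6.1 as its floor. Bounds are given where the other group was above 6.1 on all arrays. Log2 differences are as fitted, with no floor. Differences carry standard errors.

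Receptors and gene lists were chosen with earlier results of these data known. Text names all 10 receptors, the ligands, up to 6 other receptors and 2 processing and 2 transducer genes per comparison by smallest p, and the 3 genes most like each receptor. Mc4r, Rgs9 and Rgs4 in PV-tdTomato, Galr2, Rxfp4, Agtr1b, Pth2r, Cpe, Vgf and Scg3 in striatum were added after their values were seen. After removal of group means, same-numbered arrays of PV-tdTomato striatum and cortex correlated at r = 0.58 to 0.76. The best partner was replicate 1 for 1 and 2, and 3 for 3 and 4. This sets replicates 1 and 2 apart from 3 and 4 and does not show pairing by number. The main fit had no block for replicate number. Each other comparison held same-numbered arrays with a negative r. The fit was tested on simulated data. Promoters came from RefSeq (GRCm38.p6). Plots were drawn in matplotlib 3.10.9 and tables made in pandas 2.3.3 (Python 3.11.15).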

Additional observations from a re-analysis of the deposited data

Results flagged for a closer look

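Among 140 sets of 4 arrays checked, 5 held a value whose gap to the nearest other array, over the range of the set, was above Dixon's critical value for 4 samples. Chance alone flags about 1 in 20 such sets. Tacr3 was 5.5 in PVCre striatum replicate 1, against 4.98 to 5.06 in the other arrays of that group, all within background. Ppy was 5.8 on the same array, against 5.71 to 5.72. Prokr2 was 6.85 there, against 8.39 to 8.69. Sctr was 6.79 in PVCre striatum replicate 4, against 6.48 to 6.53. Kiss1r was 5.82 in PVCre cortex replicate 3, against 5.41 to 5.44. The other flags concern the difference between the lines' region effects, PVCre minus PV-tdTomato, which passed for Vip at 6.8 and for Rxfp1 at 4.09, both with an adjusted p of 0.049 in limma.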

How the results depend on the processing

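Alternatives were other filters, quantile normalization, centring on medians, a trended robust prior, array weights, the mean of all clusters of a gene, marker covariates, fits on 2 groups, the replicate number as a block and each array left out; leaving out the 6 arrays of lowest Pvalb was added after seeing the data. Of the called differences of other receptors, ligands, processing genes and transducers refitted under these alternatives (up to 6, all, 2 and 2 per comparison, and Mc4r), none changed sign. Receptor differences that changed sign were, with covariates, Npy2r (-0.20), Npy5r (-0.08) and Oprm1 (-0.14) between PVCre regions, Npy2r between lines in striatum (0.01), and Mc3r (0.31), Oprd1 (0.96) and Cckbr (0.16) between lines in cortex; with array weights, Oprd1 between lines in cortex (0.13) and Cckbr between PV-tdTomato regions (0.15); and Cckbr between PV-tdTomato regions without cortex replicate 1 (0.12). Causes were not tested.

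Counts of calls that moved by over 1.5 times follow. Between PVCre regions, ligands (0) were 1 with quantile normalization, covariates or the replicate block, and 2 with array weights, 2 groups or without the 6 arrays; processing genes (1) were 0 without a filter, with centring, 2 groups or without the 6 arrays, 2 with quantile normalization or covariates, and 5 with weights or the block; transducers (2) were 7 with weights, 5 with covariates, 4 with 2 groups or without the 6 arrays, and 9 with the block. Between PV-tdTomato regions, other receptors (7) were 4 with the stricter filter and 1 with 2 groups; processing genes (1) were 0 with weights or 2 groups; transducers (4) were 7 with covariates and 1 with 2 groups. Between lines in striatum, other receptors (15) were 31 without a filter and 7 with the stricter one; ligands (4) were 1 with covariates; processing genes (5) were 3 with quantile normalization, 8 with weights, 2 with covariates and 10 without the 6 arrays; transducers (16) were 10 with covariates. Between lines in cortex, other receptors (21) were 35 without a filter, 9 with the stricter one and 12 with covariates; with covariates, ligands (7) were 2, processing genes (9) 1 and transducers (20) 7. With each array left out, calls ranged from 0 to 3 for other receptors, 0 to 4 for processing genes and 2 to 4 for transducers between PVCre regions, from 4 to 6 for other receptors and 0 to 1 for processing genes between PV-tdTomato regions, and from 2 to 4 for ligands between lines in striatum, 2 without PV-tdTomato striatum replicate 4.

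With the replicate number as a block, Mc4r was the named call lost between PV-tdTomato regions (adjusted p = 0.096), 6 other receptors were called, and all genes called were 581 against 477. Between PVCre regions, where arrays with the same title number correlated at r = -0.29 to 0.69, the block gave 2099 calls against 799, and array weights 2498. The description numbers of PVCre cortex would match other arrays, and a block on them was not tested. Between PV-tdTomato regions all calls were 1612 with array weights, 778 with covariates, 308 with the stricter filter, 287 with 2 groups and 1046 without the 6 arrays. Between the lines, 6279 genes were called with covariates in striatum, against 10950, and 5093 in cortex, against 10986. Most receptors lie near background, where a level is only a bound.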
